A study of Mus musculus with 8 samples.

Results

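The cytochrome P450 genes of families 1, 2 and 3 encode most of the enzymes with which the liver oxidises drugs, foreign chemicals, steroids and fatty acids. Their members were taken as every gene of the array whose symbol begins with Cyp1, Cyp2 or Cyp3, then a lower-case letter and a number, which gave 45 genes of the 16593 genes with a probe. Liver total RNA of female C57/BL6 mice was measured on 8 Illumina bead arrays after a 6 h fast. The groups were a diet with 21% corn oil (w/w) or one with 5%, an age of 456 days (D456) or 90 days (D90), and the F3 or the F1 generation, and each of the 8 combinations had 1 array. No combination had a replicate, so each level of a factor was represented by 4 arrays that differed in the other factors. Whether single or pooled animals were hybridised is not in the labels, nor is the generation in which a diet began or how long it was eaten.

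P450 enzymes sit in the endoplasmic reticulum, hold a haem group, and receive electrons from NADPH through the reductase encoded by Por. In liver, foreign compounds raise Cyp1 genes through the receptor AHR, Cyp2b genes through CAR (Nr1i3) and Cyp3a genes through PXR (Nr1i2). In mice, several members are also known to differ between male and female liver under the control of pituitary growth hormone, and others to be confined to hepatocytes near the central vein or near the portal vein.

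Values are log2 of the deposited intensities, and each gene is represented by its brightest probe. A difference is a log2 difference, given with its standard error from a limma model of diet, age and generation over all 8 arrays. The 8945 genes whose probe had a mean log2 intensity above 6.95, the median over all probes, were tested. A gene passed if its p-value, adjusted by Benjamini-Hochberg over those 8945 genes for each factor, was below 0.05. P-values measure the spread between these arrays and not between animals. Of the 45 members, 32 were tested, and the median standard error over the genes tested was 0.084. Matched pairs below are pairs of arrays that share the other 2 factors.

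The promoter windows of 4 members are printed first, to show the genes that the age comparison describes in most detail. Cyp1a2 and Cyp2d9 had the largest age differences, and Cyp2b9 and Cyp2b13 had the most similar windows within a subfamily. No link between these letters and an age difference was tested. The windows run from 250 bases before to 50 bases after the annotated start (RefSeq, build GRCm38.p6), and are written 5′ to 3′ on the gene's own strand. Cyp1a2 lies on the minus strand (window chr9:57683606-57683905) and Cyp2d9 on the plus strand (chr15:82452127-82452426). Capitals mark the letters TATAAA and CAAAG, searched on both strands.
Cyp1a2: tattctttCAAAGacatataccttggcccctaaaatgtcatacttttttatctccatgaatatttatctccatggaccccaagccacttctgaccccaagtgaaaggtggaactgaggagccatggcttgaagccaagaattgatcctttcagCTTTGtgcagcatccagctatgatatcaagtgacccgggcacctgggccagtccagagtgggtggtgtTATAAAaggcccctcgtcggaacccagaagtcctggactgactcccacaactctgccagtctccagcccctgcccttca
Cyp2d9: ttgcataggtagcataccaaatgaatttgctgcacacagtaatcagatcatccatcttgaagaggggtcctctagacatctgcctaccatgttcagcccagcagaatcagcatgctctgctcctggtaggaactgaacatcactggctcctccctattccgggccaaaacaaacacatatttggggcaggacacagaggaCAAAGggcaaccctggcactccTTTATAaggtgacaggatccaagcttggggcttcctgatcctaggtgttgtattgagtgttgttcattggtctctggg

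TATAAA lay 29 bases before the start of Cyp1a2, and its reverse complement lay 28 bases before the start of Cyp2d9. CAAAG, part of the site of the hepatocyte factor HNF4, was found once on the same strand and once on the other strand upstream of Cyp1a2, 242 and 97 bases before its start, and 50 bases before the start of Cyp2d9. Neither window held GCGTG, the core letters of the AHR site. No overlap between motifs occurred in these windows, and a match in letters is a description and not a binding site.

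The Cyp2b9 and Cyp2b13 windows both lie on the plus strand of chromosome 7 (chr7:26173159-26173458 for Cyp2b9, chr7:26061245-26061544 for Cyp2b13). They were identical at 298 of 300 positions. Capitals mark the 2 positions that differ, which are T48C and C104T with the Cyp2b9 base first, counted from 1 at the 5′ end of the window.
Cyp2b9: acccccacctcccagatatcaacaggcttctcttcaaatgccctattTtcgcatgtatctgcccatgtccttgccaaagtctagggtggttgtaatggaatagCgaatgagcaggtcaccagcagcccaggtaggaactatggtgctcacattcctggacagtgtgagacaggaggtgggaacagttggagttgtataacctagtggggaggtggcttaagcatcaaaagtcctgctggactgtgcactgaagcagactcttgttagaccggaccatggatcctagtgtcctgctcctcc
Cyp2b13: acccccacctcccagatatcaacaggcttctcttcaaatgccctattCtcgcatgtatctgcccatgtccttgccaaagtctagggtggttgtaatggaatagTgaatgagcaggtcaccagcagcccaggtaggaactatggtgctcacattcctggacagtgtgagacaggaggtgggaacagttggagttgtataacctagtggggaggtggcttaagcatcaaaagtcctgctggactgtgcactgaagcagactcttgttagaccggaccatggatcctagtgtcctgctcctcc

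Over the members, 39 of 45 had such a window, and Cyp2d12, Cyp2d13, Cyp2d22, Cyp2d34, Cyp2g1 and Cyp2u1 had none in the table. TATAAA was present in 22 of these 39 members (56.4%), against 15.7% of 27025 genes with a window. CAAAG was present in 84.6% of members, against 57.4% of genes, and AGGTCA, the repeat unit of sites for nuclear receptors such as CAR and PXR, in 35.9% of members, against 18.1% of genes. GCGTG was less frequent in the members, at 15.4% against 35.2%, and TTCNNNGAA, a STAT5 site, was present in 2.56% of members, against 9.55% of genes. All 5 motifs were searched on both strands. After Cyp2b9 and Cyp2b13 (99.3%), the most similar windows within a subfamily were those of Cyp2c37 and Cyp2c50 (86.6% identity in a global alignment) and of Cyp2d10 and Cyp2d9 (83.3%). Probes of such near-identical genes may read more than 1 transcript.

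The members fall into 14 subfamilies, and 21 of the 45 had a mean log2 intensity above 8. Cyp2e1, which oxidises ethanol and acetone, read between 14.45 and 14.60 on the 8 arrays, a spread of 0.15. Cyp2a5, which hydroxylates coumarin, read between 13.68 and 14.10. Cyp2c70, which makes the mouse-specific muricholic bile acids, read between 13.11 and 13.52. Cyp3a11, the chief drug-oxidising Cyp3a enzyme of mouse liver and a PXR target, read between 12.75 and 13.59. The level of one probe was not set against that of another as an amount of RNA.

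Members above 8 included 5 of 10 Cyp2c genes, 5 of 8 Cyp2d genes, 3 of 5 Cyp2b genes and 3 of 6 Cyp3a genes. Both Cyp2a genes, Cyp1a2, Cyp2e1 and Cyp2f2 completed them. Tested members that stayed below 8 on average were Cyp1b1, which hydroxylates oestradiol mainly outside the liver, Cyp2b10, Cyp2c38, Cyp2c39, Cyp2c40, Cyp2c55, Cyp2d12, Cyp2d13, Cyp2g1, an enzyme of the olfactory mucosa, Cyp2j9 and Cyp2s1. For these dim genes a difference is understated, because the intensities were compared with no background subtraction.

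The other 13 members were below the filter and read between 6.77 and 7.01 on all arrays. They were Cyp1a1, the classical AHR-induced enzyme, Cyp2b19, Cyp2c65, Cyp2d34, the arachidonic acid epoxygenases Cyp2j5, Cyp2j6, Cyp2j11 and Cyp2j13, the vitamin D hydroxylase Cyp2r1, Cyp2u1, and Cyp3a16, Cyp3a41a and Cyp3a44. Cyp3a41a and Cyp3a44 are known as female-biased genes of mouse liver. A dim probe does not show that a transcript was absent, since the probe of Alb, the albumin gene, read only between 8.09 and 9.04 in the same arrays.

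**Figure D1:**
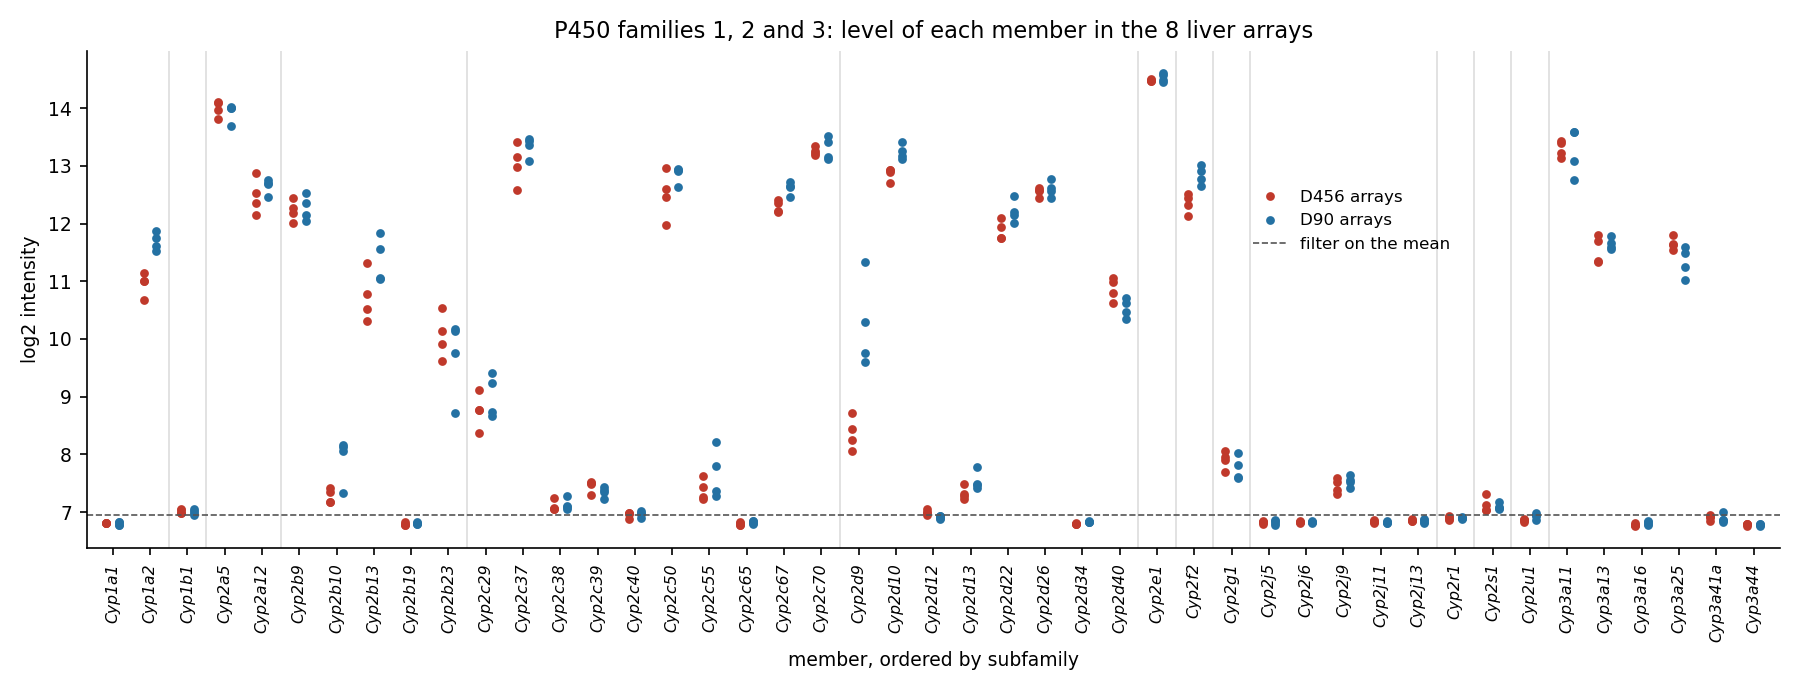
Log2 intensity (vertical axis) of the 45 members, ordered by subfamily, in the 4 D456 arrays (left point column of each gene) and the 4 D90 arrays (right point column). The dashed line is the filter on the mean, at 6.95. The D456 points of Cyp1a2 and Cyp2d9 lie wholly below their D90 points, while the points of Cyp2e1 lie within 0.15 of each other.

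Some arrays stood apart, and the values that touch the members are given here once. The median log2 intensity of 19 pancreas acinar markers was 10.20 in F3 5% D456, 9.41 in F1 5% D456 and 8.82 in F3 5% D90, against 6.88 to 6.98 in the other 5 arrays. In all 3 arrays the diet was the 5% one. The only 5% array with a low level was F1 5% D90, while every 21% array had one. Diet differences fitted with this level as a covariate therefore lean on F1 5% D90. F1 5% D90 had a mean correlation of 0.977 with the others, against 0.986 to 0.990 for the rest. It was the lowest array for 7 tested members and the highest for 8. F1 5% D456 was the lowest array for 10 tested members and the highest for 2. In F1 21% D90 the Y chromosome gene Eif2s3y read 7.37, against 6.77 to 6.82 elsewhere. The median of 18 male-biased liver genes outside the members, of which 15 were tested, was 10.2 there, against 8.50 to 9.17. The median of skeletal muscle markers was 8.03 in F3 5% D456 and 8.42 in F1 5% D90, against 6.87 to 7.09 in the other arrays, and 7 of 7 tested were lower with 21% corn oil than with 5% (median -0.68, 0 passing in limma). The part of muscle or pancreas RNA in the member values was not tested beyond the pancreas covariate. Hepatocyte markers had medians of 14.46 to 14.59 on every array. In bulk tissue, fewer hepatocytes and less RNA per hepatocyte cannot be told apart.

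Age gave the only member that passed. Cyp1a2, which oxidises caffeine and aromatic amines, is an AHR target and is made by hepatocytes near the central vein, fell to 0.60-fold at D456 relative to D90. Among the other tested members more had a difference below 0 than above it, and the Cyp2b, Cyp2c and Cyp2d subfamilies had medians of -0.34, -0.26 and -0.21. Without a filter the Cyp2b median was -0.04, with the dim Cyp2b19 included. The Cyp2c median was -0.13 without F1 5% D456, -0.14 without F3 5% D90, -0.16 without F3 5% D456 and -0.11 with the pancreas marker level as a covariate in the model, and the Cyp2d median was -0.12 without F1 5% D90, -0.14 without F1 5% D456 and -0.07 with that covariate. Cyp2d9, a steroid hydroxylase known for its male bias in mouse liver, had the largest difference and did not pass. The Cyp3a and Cyp2a genes showed no common direction.

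Cyp1a2 read 11.00 in F3 21%, 11.14 in F1 21%, 10.68 in F3 5% and 11.00 in F1 5% at D456, against 11.61, 11.75, 11.52 and 11.87 in the same order at D90. All D456 arrays lay below all D90 arrays. As intensities these were 1641 to 2260 at D456 and 2941 to 3750 at D90. The means were 10.95 ± 0.20 at D456 and 11.69 ± 0.16 at D90 (SD, n = 4 arrays each), and the difference was -0.73 ± 0.09 (adjusted p = 0.0409 in limma, lower in 4 of 4 pairs). Within diets the difference was -0.61 at 21% and -0.86 at 5%, and within generations -0.72 in F3 and -0.74 in F1. In a fit over all kept probes, the second probe of Cyp1a2 had a difference of -0.51 ± 0.13 and did not pass (adjusted p = 0.236 in limma). The brightest probe had an adjusted p of 0.0525 in that limma fit. In the F1 5% pair the second probe read 10.84 at D456 and 10.94 at D90. The call rested on the array set: with any 1 of the 8 arrays left out the difference stayed between -0.79 and -0.67, but it passed only without F1 5% D90 or F1 21% D90, with an adjusted p of 0.119 to 0.277 in the other 6 fits.

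Of the 32 tested members, 1 passed (Cyp1a2), where 0.101% of all genes tested passed. At an unadjusted p below 0.05 there were 13 members, where 12.2% of all genes reached that level. Of these, 10 were lower, against 6.57% of all genes, and 3 were higher, against 5.62%. All 4 pairs were lower in 7 members, against 11.8% of all genes, and higher in 3 members, against 7.61%. The difference was below 0 in 22 of 32 members, against 59.4% of all genes. A difference of 0.3 or more in size was found in 13 of 32 members, against 7.03% of all genes. Among genes brighter than 8, it was found in 12 of 21 members, against 12.2% of 4355 genes. Of these bright members 16 had a difference below 0, against 57.9% of the bright genes, and 5 were lower without overlap, against 5.37%. The median difference was -0.064 over the tested members and -0.021 over all genes tested.

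Cyp2d9 read 8.24 in F3 21%, 8.07 in F1 21%, 8.73 in F3 5% and 8.44 in F1 5% at D456, against 9.60, 11.33, 9.75 and 10.30 in the same order at D90. The groups did not overlap, and F1 21% D90 stood above every other array. The means were 8.37 ± 0.28 at D456 and 10.25 ± 0.78 at D90 (SD, n = 4 arrays each), a difference of -1.88 ± 0.33 or 0.27-fold (adjusted p = 0.0937 in limma, lower in 4 of 4 pairs). Without F1 21% D90, the array with the Eif2s3y signal, the difference was -1.45 and passed (adjusted p = 0.0164). Of 21 settings, which include the main fit, it passed in 4. Without F3 5% D90 it was -2.01, with an adjusted p of 0.312 in limma. In the male-biased list outside the members, 13 of 15 tested genes were lower at D456 and 0 passed in limma (Serpina1e -2.50 ± 0.35, adjusted p = 0.0530). Whether male-biased transcripts of that array account for the Cyp2d9 difference was not tested.

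The other tested Cyp2d genes spanned at most 0.73 over the 8 arrays, against 3.26 for Cyp2d9. Cyp2d10 had a difference of -0.38 ± 0.09, with means of 12.86 ± 0.11 at D456 and 13.24 ± 0.13 at D90 (SD, n = 4 arrays each), and its groups did not overlap. Cyp2d22 had a difference of -0.32 ± 0.10 and Cyp2d13 one of -0.21 ± 0.08. Cyp2d40 had a difference of the other sign, +0.33 ± 0.13, and was higher at D456 in 4 of 4 pairs. Cyp2d26 (-0.05 ± 0.09) was nearly level on its brightest probe, while its other 2 probes, which read lowest in F1 5% D90, both had differences of +0.63. Cyp2d12, close to the filter, had a difference of +0.09 ± 0.02. The Cyp2d median was -0.21 with 5 of 7 tested members lower.

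**Figure D2:**
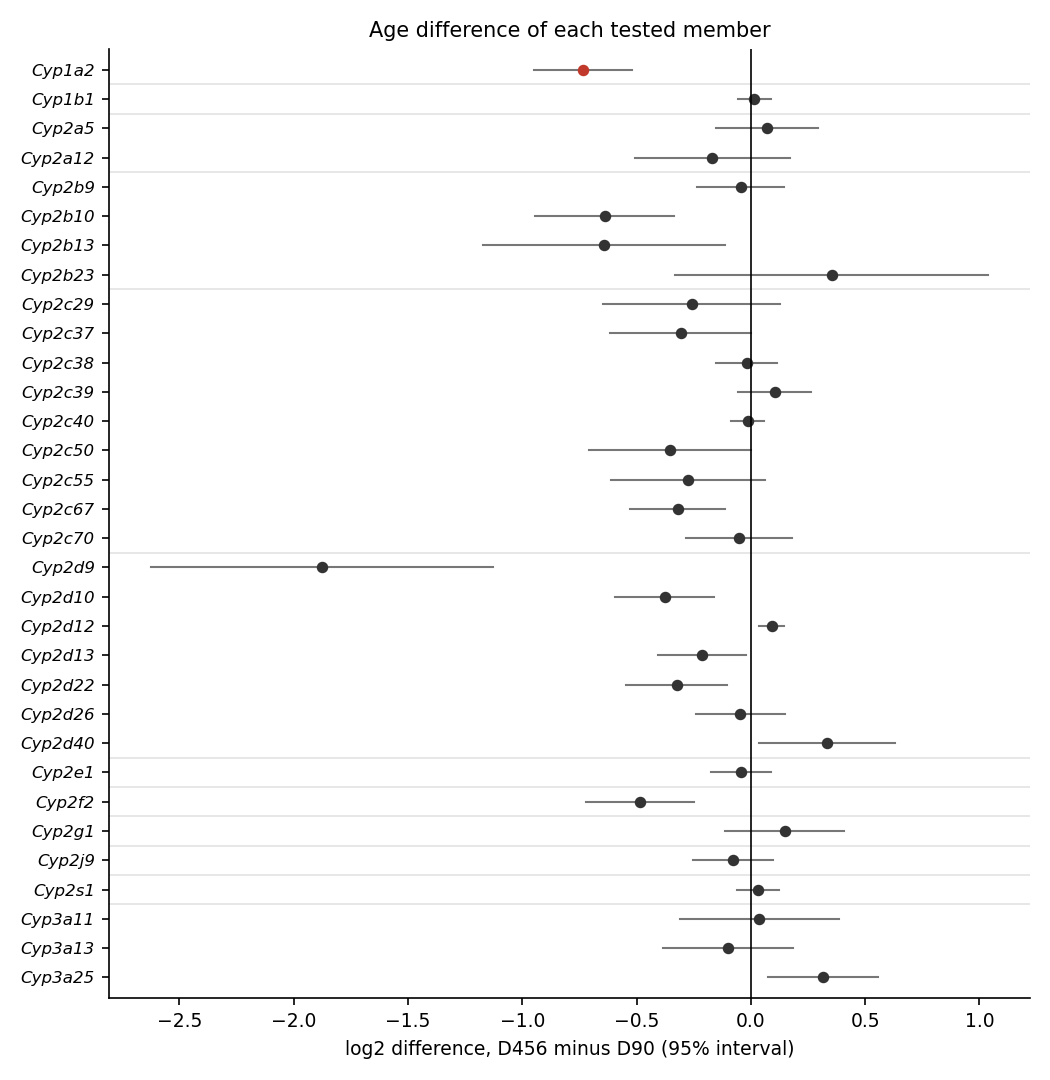
Age difference (horizontal axis, log2, D456 minus D90) of the 32 tested members, with bars for the 95% interval of the limma fit and grey lines between subfamilies. The red point is Cyp1a2, the only member with an adjusted p below 0.05, at -0.73. Cyp2d9 lies farthest from 0, at -1.88, and 22 of the 32 points lie below 0.

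Of the 4 tested Cyp2b genes, 3 had an age difference below 0. Cyp2b10, the standard CAR target gene, read 7.36 in F3 21%, 7.42 in F1 21%, 7.17 in F3 5% and 7.18 in F1 5% at D456, against 8.13, 8.16, 8.06 and 7.33 in the same order at D90. At D90 all arrays but F1 5% were near 8.1, and that array lay inside the D456 range. The difference was -0.64 ± 0.13 (adjusted p = 0.139 in limma, lower in 4 of 4 pairs). It was -0.81 without F1 5% D90 (adjusted p = 0.00431), -1.23 after background subtraction, and it passed with array weights (adjusted p = 0.00334) and with the pancreas marker level as a covariate (adjusted p = 0.0213). Of 21 settings, which include the main fit, it passed in 4. Without F3 5% D90 it was -0.52, with an adjusted p of 0.456 in limma.

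Cyp2b13, a female-biased gene, read 10.78 in F3 21%, 10.51 in F1 21%, 11.32 in F3 5% and 10.31 in F1 5% at D456, against 11.55, 11.83, 11.06 and 11.04 at D90. The difference of -0.64 ± 0.23 (adjusted p = 0.344 in limma) was of the opposite sign in the F3 5% pair, at +0.27, and reached -1.32 in the F1 21% pair. It was -0.41 without F1 21% D90 and -0.40 with array weights.

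Cyp2b9, another female-biased gene, read 12.44 in F3 21%, 12.19 in F1 21%, 12.27 in F3 5% and 12.01 in F1 5% at D456, against 12.54, 12.05, 12.35 and 12.15 at D90. Its arrays overlapped throughout, with a difference of -0.04 ± 0.08 (95% interval -0.23 to +0.15). Between these genes of nearly identical promoter windows, the age difference of Cyp2b13 minus that of Cyp2b9 averaged -0.60 (SD 0.74, 4 pairs, below 0 in 3 of 4). The two-sided exact sign-flip permutation test gave p = 0.25 (adjusted p = 0.75 over 9 such comparisons), and 4 pairs allow no p below 0.125. The Cyp2b10 and Cyp2b9 age differences differed by -0.59 (SD 0.40, below 0 in 4 of 4 pairs, exact permutation p = 0.125, adjusted p = 0.563), and those of Cyp2d9 and Cyp2d10 by -1.50 (SD 0.96, below 0 in 4 of 4 pairs, exact permutation p = 0.125, adjusted p = 0.563). These gene pairs were chosen after their values had been seen.

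Cyp2b23 completed the Cyp2b genes with a difference of +0.35 ± 0.30 and was at +0.02 without F1 5% D90. The Cyp2b median was -0.34.

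**Figure D3:**
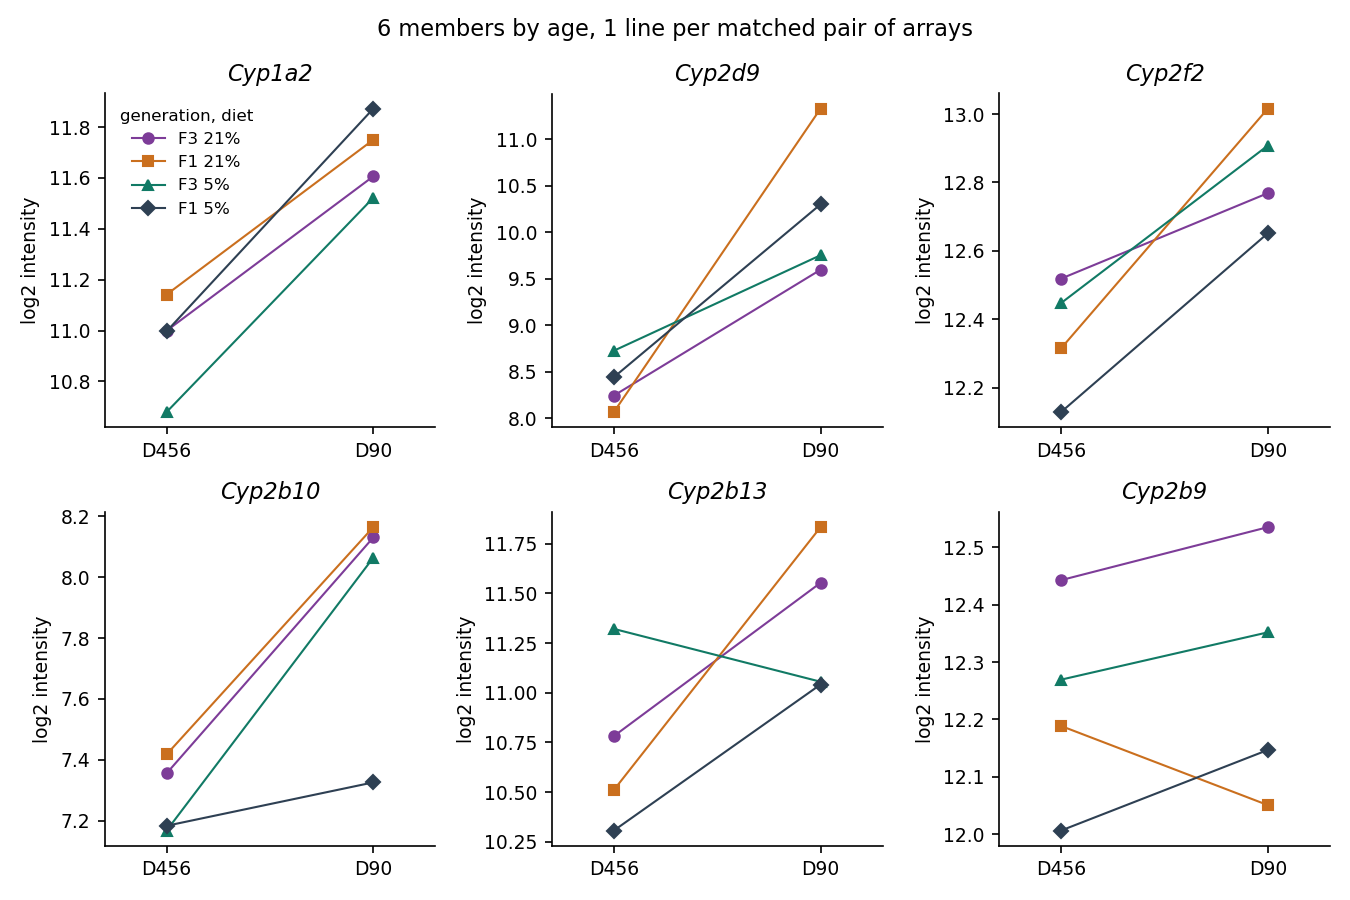
Log2 intensity (vertical axes, which differ and do not start at 0) of 6 members at D456 (left) and D90 (right), with 1 line for each matched pair of arrays. The lines of Cyp1a2, Cyp2d9, Cyp2f2 and Cyp2b10 all run up towards D90, while 1 line of Cyp2b13 (F3 5%) and 1 of Cyp2b9 (F1 21%) run down.

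Cyp2f2, which oxidises naphthalene and is found in hepatocytes near the portal vein, read 12.52 in F3 21%, 12.31 in F1 21%, 12.45 in F3 5% and 12.13 in F1 5% at D456, against 12.77, 13.02, 12.91 and 12.65 at D90. The groups did not overlap. The difference was -0.48 ± 0.10 (adjusted p = 0.139 in limma, lower in 4 of 4 pairs), and it passed with array weights (adjusted p = 0.0303). Of 21 settings, which include the main fit, it passed in 2. Without F3 5% D90 it was -0.45, with an adjusted p of 0.543 in limma. Of 6 other periportal genes tested, 5 were lower at D456. Cdh1, the adhesion protein of periportal hepatocytes, passed (-0.96 ± 0.11, adjusted p = 0.0247 in limma), and Hal, which breaks down histidine, did not (-0.60 ± 0.10, adjusted p = 0.0853).

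Members known from hepatocytes near the central vein were Cyp1a2, Cyp2a5, Cyp2c29, Cyp2c37, Cyp2c38, Cyp2c50, Cyp2e1 and Cyp3a11. Their median age difference was -0.15, with 6 of 8 lower, against 59.4% of all genes, and Cyp1a2 the one that passed. The 12 tested pericentral genes outside the members had a median of -0.02, with 8 lower and 0 passing in limma. Lgr5 (+0.14 ± 0.04) and Rhbg (-0.11 ± 0.06) had the largest differences among them.

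The Cyp2c genes, which oxidise arachidonic acid and many drugs, had 8 of 9 tested members lower at D456 and a median of -0.26. Cyp2c50 read 12.59 in F3 21%, 12.97 in F1 21%, 12.46 in F3 5% and 11.98 in F1 5% at D456, against 12.92, 12.90, 12.64 and 12.95 at D90. Only F1 5% D456 lay far below the rest, and the difference of -0.36 ± 0.15 (adjusted p = 0.409 in limma) was -0.17 without it. Cyp2c37, with a similar promoter window, had a similar pattern and a difference of -0.31 ± 0.13, which was -0.16 without that array. Cyp2c67 had non-overlapping groups and a difference of -0.32 ± 0.09, but its second probe had one of +0.13, and their mean -0.10.

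Cyp2c29 (-0.26 ± 0.17) and Cyp2c55 (-0.27 ± 0.15) had similar differences with larger errors. Cyp2c70 (-0.05 ± 0.10), Cyp2c38 (-0.02 ± 0.06) and Cyp2c40 (-0.01 ± 0.03) were nearly level, and Cyp2c39, which hydroxylates retinoic acid, was at +0.10 ± 0.07. With the mean of all kept probes in place of the brightest probe, the Cyp2c median was -0.10.

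Cyp2a12, which hydroxylates steroids and bile acids, read 12.53 in F3 21%, 12.88 in F1 21%, 12.15 in F3 5% and 12.36 in F1 5% at D456, against 12.70, 12.45, 12.76 and 12.68 at D90. The 5% arrays were lower at D456 and the F1 21% array was higher, and the difference was -0.17 ± 0.15. Cyp2a5 had a difference of +0.07 ± 0.10 on its brightest probe. Of its other kept probes, 2 had differences of +0.82 and +0.86 and read lowest in F1 5% D90 relative to the brightest, and 1 had a difference of +0.12.

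Among the Cyp3a genes, Cyp3a25 (+0.32 ± 0.11) was higher at D456 in 4 of 4 pairs, at +0.05 to +0.60, with an adjusted p of 0.322 in limma. Cyp3a11 (+0.04 ± 0.15) and Cyp3a13 (-0.10 ± 0.12) had no consistent sign over the pairs. Members that were the only one tested in their subfamily, apart from Cyp1a2 and Cyp2f2, had small differences, with Cyp2e1 at -0.04 ± 0.06, Cyp1b1 at +0.02 ± 0.03, Cyp2j9 at -0.08 ± 0.08, Cyp2s1 at +0.03 ± 0.04 and Cyp2g1 at +0.15 ± 0.11. Groups that did not overlap were found for 5 lower members (Cyp1a2, Cyp2c67, Cyp2d9, Cyp2d10 and Cyp2f2), where 4.89% of all genes were lower without overlap, and for 1 higher member (Cyp2d12), against 3.22% of all genes. Differences between subfamilies were not tested.

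Genes that act on the members were compared by age as well. Of 19 tested receptors and regulators, 12 were lower at D456, against 59.4% of all genes, and 0 passed in limma. Nr1i3, which encodes CAR, had a difference of +0.34 ± 0.12, Nr1i2, which encodes PXR, one of -0.25 ± 0.11, and Hnf4a, a master regulator of hepatocyte genes, one of -0.32 ± 0.16. Of 15 genes of electron supply and haem metabolism, 10 were higher and 0 passed in limma, with Pgrmc1 at -0.35 ± 0.18 and Alas1, the first enzyme of haem synthesis, at -0.24 ± 0.11. Of 14 other targets of AHR, CAR and PXR, 9 were lower, against the same 59.4%, and 0 passed in limma. The glutathione transferases Gsta1, at -0.41 ± 0.39, and Gstm2, at +0.32 ± 0.15, were at the ends.

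For diet, no member passed in limma, and neither did any other gene (0% of 8945). At an unadjusted p below 0.05 there were 4 of 32 members, Cyp2b10, Cyp2c37 and Cyp2s1 higher and Cyp2d22 lower with 21% corn oil, where 3.22% of all genes reached that level (1.33% higher and 1.89% lower). All 4 pairs were higher in 3 members, against 5.35% of all genes, and lower in 2, against 4.72%. The difference was above 0 in 20 of 32 members, against 53% of all genes, and the median was +0.04, against +0.004 over all genes. A difference of 0.3 or more in size was found in 4 of 32 members, against 1.84% of all genes, and in 3 of the 21 bright members, against 2.59% of the bright genes. The Cyp2d and Cyp2c subfamilies had diet medians of +0.004 and -0.02.

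Cyp2c50 and Cyp2c37 had 2 of the largest diet differences. Cyp2c50 read 12.59 in F3 D456, 12.97 in F1 D456, 12.92 in F3 D90 and 12.90 in F1 D90 with 21% corn oil, against 12.46, 11.98, 12.64 and 12.95 with 5%. Cyp2c37 read 13.15, 13.41, 13.46 and 13.36 in the same order with 21%, against 12.97, 12.58, 13.08 and 13.43 with 5%. In both genes F1 5% D90 lay above the other 5% arrays, the 3 that held pancreas transcripts. The differences were +0.34 ± 0.15 for Cyp2c50 and +0.33 ± 0.13 for Cyp2c37. With the pancreas marker level as a covariate they were +0.04 and +0.03, and without F1 5% D456 they were +0.15 and +0.18. The covariate values lean on F1 5% D90, the only 5% array with a low marker level.

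Cyp2b10 read 7.36 in F3 D456, 7.42 in F1 D456, 8.13 in F3 D90 and 8.16 in F1 D90 with 21% corn oil, against 7.17, 7.18, 8.06 and 7.33 with 5%. It was higher with 21% in 4 of 4 pairs, with a difference of +0.33 ± 0.13. Most of it came from the F1 D90 pair, at +0.84, and without F1 5% D90 it was +0.16. All 4 tested Cyp2b genes were higher on average with 21% (median +0.20), with Cyp2b13 at +0.24 ± 0.23, Cyp2b23 at +0.17 ± 0.30 and Cyp2b9 at +0.11 ± 0.08. In the F1 D90 pair Cyp2b13 was at +0.79 and Cyp2b23 at +1.42. Within D456 these genes were at -0.17 and -0.57, and within F3 at -0.02 and -0.11. The Cyp2b median was +0.09 without F1 21% D90, +0.12 without F3 5% D90, and +0.31 to +0.36 without F1 21% D456, F3 5% D456 or F3 21% D456. With the pancreas marker level as a covariate it was +0.77, a value that leans on F1 5% D90, the only 5% array with a low marker level.

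Cyp2c29 read 8.38 in F3 D456, 9.11 in F1 D456, 8.73 in F3 D90 and 8.67 in F1 D90 with 21% corn oil, against 8.76, 8.77, 9.24 and 9.41 with 5%. The difference was -0.32 ± 0.17, with a value of the opposite sign in the F1 D456 pair, and it was -0.18 without F1 21% D90. Cyp2c55 read 7.26, 7.23, 7.81 and 7.27 in the same order with 21%, against 7.44, 7.63, 8.21 and 7.37 with 5%. It was lower in 4 of 4 pairs with a difference of -0.27 ± 0.15, which was -0.14 without F3 5% D90 or F1 5% D456 and -0.06 with the pancreas covariate.

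Cyp2d22 was lower with 21% in 4 of 4 pairs (-0.24 ± 0.10). Cyp2s1, a dim member, read 7.31 in F3 D456, 7.12 in F1 D456, 7.18 in F3 D90 and 7.09 in F1 D90 with 21% corn oil, against 7.04, 7.05, 7.08 and 7.05 with 5%. It was the only tested member whose diet groups did not overlap, where 0.95% of all genes were higher and 0.894% lower without overlap, and its difference was +0.12 ± 0.04. In the Cyp3a genes Cyp3a25 was higher in 4 of 4 pairs (+0.15 ± 0.11), and Cyp3a11 was level (-0.04 ± 0.15, 95% interval -0.38 to +0.31).

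Of the genes that act on the members, receptors and regulators had 10 of 19 higher with 21% corn oil and electron supply and haem genes 11 of 15. Over all genes tested, 53% were higher, and 0 passed in either list in limma. Cyb5r3, the reductase of cytochrome b5, had a difference of -0.42 ± 0.11 (adjusted p = 0.631), and Nr1i3 one of +0.17 ± 0.12. Among other targets of AHR, CAR and PXR, Gstm1 was at -0.38 ± 0.10 and Aldh1a1, which oxidises retinal, at +0.37 ± 0.12, and 0 of 14 passed in limma.

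**Figure D4:**
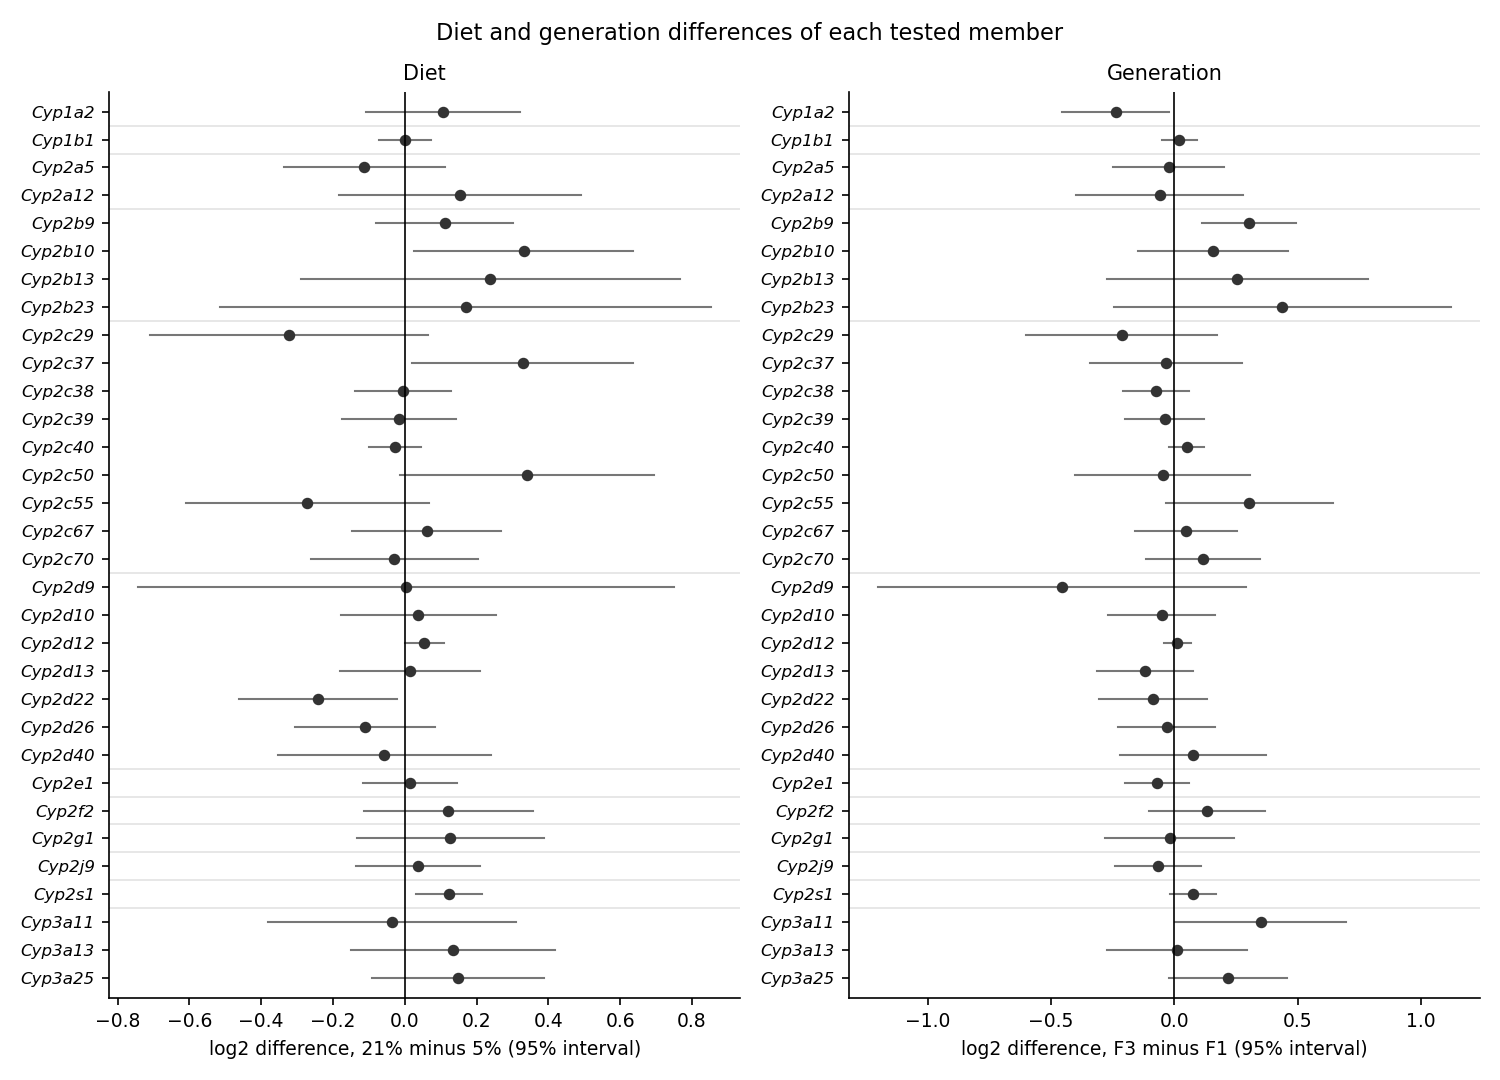
Diet difference (left, log2, 21% minus 5%) and generation difference (right, log2, F3 minus F1) of the 32 tested members, with bars for the 95% interval of the limma fit. No member passed. All 4 tested Cyp2b genes lie above 0 in both panels, and the intervals of Cyp2b23 and Cyp2d9 are the widest.

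For generation, again no member and no other gene passed in limma (0% of 8945). At an unadjusted p below 0.05 there were 3 of 32 members, Cyp2b9 and Cyp3a11 higher in F3 and Cyp1a2 lower, where 2.14% of all genes reached that level (0.917% higher and 1.22% lower). All 4 pairs were higher in 2 members, against 4.59% of all genes, and lower in 2, against 5.52%. The difference was above 0 in 16 of 32 members, against 43.6% of all genes, and the medians were -0.004 over the tested members and -0.010 over all genes. A size of 0.3 or more was reached by 5 of 32 members, against 2.02% of all genes, and by 4 of the 21 bright members, against 3.51% of the bright genes.

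The Cyp2b and Cyp3a genes had the highest subfamily medians, at +0.28 (4 of 4 higher in F3 on average) and +0.22 (3 of 3 higher on average). The Cyp2b median was +0.16 without F1 5% D90 and +0.03 with the pancreas covariate, and the Cyp3a median was +0.01 with no filter, which adds 3 dim genes. Cyp2b9 read 12.44 in 21% D456, 12.27 in 5% D456, 12.54 in 21% D90 and 12.35 in 5% D90 in F3, against 12.19, 12.01, 12.05 and 12.15 in F1. It was the only member whose generation groups did not overlap, where 0.514% of all genes were higher and 0.626% lower without overlap. The means were 12.40 ± 0.11 in F3 and 12.10 ± 0.08 in F1 (SD, n = 4 arrays each), and the difference was +0.30 ± 0.08 (adjusted p = 0.988 in limma). It lay between +0.24 and +0.36 under all alternative settings and without any 1 array.

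Cyp3a11 read 13.22 in 21% D456, 13.40 in 5% D456, 13.59 in 21% D90 and 13.59 in 5% D90 in F3, against 13.13, 13.43, 13.09 and 12.75 in F1. The F3 arrays exceeded the F1 arrays at D90 and were close to them at D456. The difference was +0.35 ± 0.15, and +0.18 without F1 5% D90. Cyp3a25 was at +0.22 ± 0.11 and Cyp3a13 at +0.01 ± 0.12.

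Cyp2b23 read 9.91 in 21% D456, 10.53 in 5% D456, 10.17 in 21% D90 and 9.76 in 5% D90 in F3, against 9.61, 10.14, 10.13 and 8.72 in F1. It was higher in F3 in 4 of 4 pairs, with the largest gap in the 5% D90 pair. The difference was +0.44 ± 0.30, which was +0.10 without F1 5% D90 and -0.004 with the pancreas covariate. Cyp2b13 was at +0.25 ± 0.23 and Cyp2b10 at +0.16 ± 0.13. In 3 of 4 pairs Cyp2b10 was lower in F3, at -0.06 to -0.02, and in the 5% D90 pair it was at +0.74. Within 21% corn oil Cyp2b13 was at -0.005 and Cyp2b10 at -0.05.

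Cyp2c55 was at +0.30 ± 0.15, at +0.16 without F1 5% D90 and at +0.17 without F3 5% D90. Cyp2d9 had the largest size, -0.45 ± 0.33, and was at -0.03 without F1 21% D90. Cyp1a2 was lower in F3 in 4 of 4 pairs on its brightest probe (-0.24 ± 0.09), by 0.14 to 0.35. On its second probe the 5% D90 pair had the other sign, at 11.06 in F3 and 10.94 in F1. Cyp2e1 was also lower in 4 of 4 pairs, by 0.01 to 0.15 (-0.07 ± 0.06). Among the genes that act on the members, Gsta1 (+1.01 ± 0.39), Gsta2 (+0.56 ± 0.23), Cyb5r3 (-0.34 ± 0.11) and Esr1, an oestrogen receptor (-0.33 ± 0.22), had differences above 0.3 in size, and 0 of 19, 15 and 14 genes of the 3 lists passed in limma.

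Whether a difference depended on another factor was tested with 3 interaction terms, each added alone. No member passed in limma for diet by age, diet by generation or age by generation, and neither did any other gene (0%). At an unadjusted p below 0.05 there were 4 of 32 members for diet by age, against 11.8% of all genes, 0 for diet by generation, against 1.17%, and 4 for age by generation, against 2.91%.

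For diet by age, Cyp2b23 and Cyp3a13 had the smallest p-values. Cyp2b23, whose 8 values are given above, had a diet difference of -0.57 at D456 and +0.91 at D90, and both pairs had that sign at each age (interaction -1.49 ± 0.30, adjusted p = 0.403). F3 5% D456, the array with the most pancreas transcripts, held its highest value, and F1 5% D90 its lowest. Cyp3a13, expressed in liver and intestine, read 11.70 in F3 21%, 11.80 in F1 21%, 11.34 in F3 5% and 11.34 in F1 5% at D456, against 11.58, 11.56, 11.78 and 11.65 at D90. Its diet difference was +0.41 at D456 and -0.14 at D90 (interaction +0.55 ± 0.17, adjusted p = 0.403). Its other probes read lowest in F1 5% D90 relative to the brightest, at -0.71 and -0.75 from the median of the remaining arrays. They shared the pattern of the brightest probe only in part. At D456 the second probe read 10.86 in F3 21% and 10.58 in F1 21%, against 10.54 and 10.53 with 5%. It was thus higher with 21% in both pairs, as the brightest probe was. The third probe read 8.12 in F3 21% and 7.74 in F1 21% at D456, against 8.10 and 8.11 with 5%. At D90 the second probe read 10.45 in F3 21% and 10.57 in F1 21%, against 10.66 and 9.92 with 5%. At D90 both probes were lower with 21% in the F3 pair, as the brightest was. Both were higher with 21% in the F1 pair, which holds F1 5% D90. No interaction was fitted for these 2 probes.

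For age by generation the smallest p-values were those of Cyp2c55 and Cyp2c70. Cyp2c55 stood high in the F3 arrays of D90, at 7.81 with 21% and 8.21 with 5% corn oil, and between 7.23 and 7.63 in all others, so that its age difference was -0.66 in F3 and +0.11 in F1 (interaction -0.77 ± 0.14, adjusted p = 0.996). Cyp2c70 read 13.22 in F3 21%, 13.26 in F1 21%, 13.19 in F3 5% and 13.35 in F1 5% at D456, against 13.42, 13.16, 13.52 and 13.11 at D90. Its age difference was -0.27 in F3 and +0.17 in F1 (interaction -0.44 ± 0.13, adjusted p = 0.996). Cyp3a11 followed, with -0.28 in F3 and +0.36 in F1 (-0.64 ± 0.22). For diet by generation, Cyp2s1 (+0.13 ± 0.07) and Cyp2b10 (-0.41 ± 0.24) had the smallest p-values, both with an adjusted p of 0.9998.

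**Figure D5:**
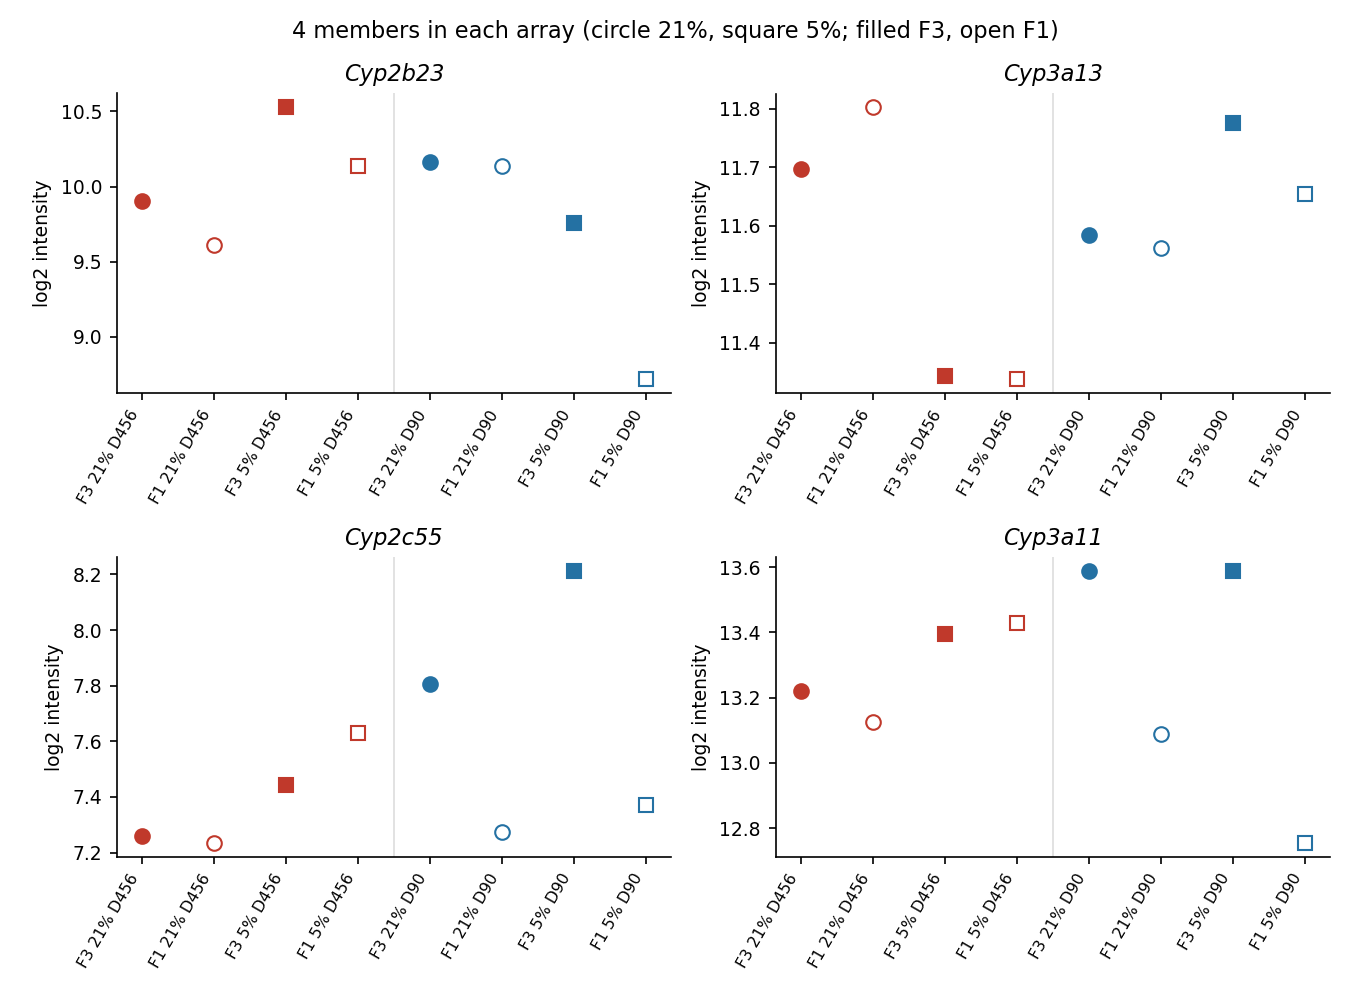
Log2 intensity (vertical axes, which differ and do not start at 0) of 4 members in each of the 8 arrays, D456 in red left of D90 in blue. Cyp2b23 is lowest in F1 5% D90, at 8.72, Cyp3a13 is lowest in the 5% arrays of D456, and Cyp2c55 and Cyp3a11 are highest in the F3 arrays of D90.

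Several members had more than 1 probe above the filter, and these did not always move together. In 8 members there were 13 further probes, and 10 of them stood lowest against the brightest probe of their gene in F1 5% D90. Over all genes, 46.2% of 3151 further probes did so, against 3.94% to 15.7% in each of the other arrays. The gap was widest for Cyp2d26, whose further probes stood at -1.47 and -1.54 in F1 5% D90 from the median of the other arrays, and for Cyp2a5, where 2 stood at -1.21 and -1.34. For Cyp2c37 the second probe differed from the first by little on any array, and its age difference was -0.26, against -0.31 for the first, while the dimmest one stood at -0.04. Whether this gap between probes bears on the other values of F1 5% D90 was not tested.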

How the data were processed

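Log2 intensity of liver RNA was taken from 1 series table of 8 arrays. The deposited intensity values are linear, 1 per probe and array, labelled with biotin and hybridised to Illumina arrays per the labels. The normalization by the authors was not given in the sources used here. Deposited values had nearly equal array means (457) and medians (123.2 to 123.5), and no background was subtracted here. They were log2 transformed with no pseudocount.

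Of 25697 probes, 23978 had 1 gene symbol, 0 had several and 1719 had none in the platform annotation. Probes above a mean of 6.95 (12848) were kept and each gene was represented by its brightest probe. An additive model was fitted in limma 3.58.1 (R 4.3.3), with moderated variances that follow a trend in intensity (residual degrees of freedom 4, prior 4.36; two-sided, Benjamini-Hochberg adjustment over 8945 genes, threshold 0.05). Each interaction was added alone, which leaves 3 residual degrees of freedom. The additive fit was first run on simulated data with independent normal noise and added age effects only. Those data held no interaction, no other tissue and no array that stood apart, so they say nothing on such conditions. The number of arrays limits the precision.

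Values in every array were given for members that passed, the 5 largest differences per factor, the largest in each subfamily with 2 or more tested members, and the 2 smallest interaction p-values each. Of other lists, 2 to 4 genes were named. The members, lists, tests and alternatives were chosen with earlier results of these data known, and the promoter alignments and the gene pairs after seeing the values. Promoter windows are RefSeq's (GRCm38.p6), aligned globally with Biopython 1.88. Protein sequences were not used here. Alternatives were other scalings, background subtraction (5th percentile, pseudocount 16), filters, probe means, variance models, array weights (statmod 1.5.0), the pancreas marker level as a covariate, other designs, and fits without 1 array. Figures were drawn with matplotlib 3.10.9.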

Additional observations from a re-analysis of the deposited data

How the results depend on the processing

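Of 669 recomputed values, 617 kept their direction and their side of the threshold or moved within the spread between pairs. This count does not measure how stable the sizes were. A gene that stayed above the threshold with the same sign was counted as kept at any size. Cyp2c50 by diet was one of these, at +0.34 in the main fit and +0.04 with the pancreas covariate. The count of members passing for age (1) was 2 with no filter, 0 with the mean of kept probes, 0 with no intensity trend, 5 with array weights, 2 with the pancreas covariate, 7 with all pairwise interactions added, and 0 to 2 without 1 array (2 without F1 5% D90 or F1 21% D90, 0 without any other). The interaction fit has 1 residual degree of freedom, and the array weights stopped before convergence. Cyp1a2 had an adjusted p of 0.0550 with the mean of kept probes and 0.107 with no intensity trend. Cyp2d9 by age passed with no filter (adjusted p = 0.0479). For diet, 1 member passed with all pairwise interactions added, Cyp2b10 (adjusted p = 0.0375 in limma). With the pancreas covariate the diet medians were 0.770 for Cyp2b and -0.0776 for Cyp2d, and without 1 array the Cyp2d median was -0.115 (without F1 21% D90) to 0.0277 (without F1 21% D456). The Cyp2c age median was -0.0972 with the mean of kept probes. The generation median over tested members was 0.0353 with the mean of kept probes, 0.0259 with array weights, 0.0188 with the pancreas covariate, and -0.0282 (without F1 21% D90) to 0.0492 (without F1 21% D456) without 1 array. With the pancreas covariate the generation medians were 0.0298 for Cyp2b and 0.0604 for Cyp2c, and Cyp2b23 reversed to -0.00412. The Cyp2c generation median was -0.103 (without F1 21% D90) to 0.0673 (without F1 21% D456). The cause of these changes was not tested. No fit with a replicate number as a block was made, because the labels carry no such numbers. Arrays were matched by the other 2 factors, which the additive model holds. Signals near the background limit the dim members, whose differences are understated. Probes of close paralogs may read more than 1 gene, and no combination had a replicate.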

Other observations

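P450 genes outside families 1, 2 and 3 were compared in the same fits. Of 30 such genes on the array 21 were tested. By age 14 were lower and 7 higher at D456, where 59.4% of all genes were lower. Their median was -0.065 and 0 passed in limma, where 0.101% of all genes passed. Cyp4f14, of a family that oxidises fatty acids and leukotrienes, had a difference of -0.62 ± 0.08 and was lower in 4 of 4 pairs (adjusted p = 0.05003). Cyp17a1, which makes androgen precursors, was at +0.61 ± 0.27, and Cyp51, an enzyme of cholesterol synthesis, at +0.41 ± 0.17 and higher in 4 of 4 pairs. By diet, Cyp7b1, an oxysterol hydroxylase with male bias in mouse liver, was higher with 21% corn oil in 4 of 4 pairs (+0.98 ± 0.31, adjusted p = 0.99996), and Cyp8b1, which makes cholic acid, was at -0.29 ± 0.12. By generation the largest sizes were Cyp4a12a (-0.52 ± 0.39) and Cyp51 (+0.37 ± 0.17). Cyp7b1 and Cyp4a12a are on the male-biased list. Of its 15 tested genes, 14 were higher with 21% corn oil and 12 were lower in F3, with 0 passing in limma. Over all genes tested, 53% were higher with 21% corn oil and 56.4% lower in F3. F1 21% D90, the array with the Eif2s3y signal, belongs to the 21% and the F1 groups. Its part in these differences was not tested.

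Female-biased genes of mouse liver outside the members had 7 of 10 higher at D456, with a median of +0.09 and 0 passing in limma, and Cyp17a1 is on that list too. A1bg, a plasma protein gene, was at +1.05 ± 0.39, and Acot3, a peroxisomal thioesterase gene, at +0.57 ± 0.12 and higher in 4 of 4 pairs. Among the members known as female-biased, the 4 tested were Cyp2b13, Cyp2b9, Cyp2c39 and Cyp2c40, with a median age difference of -0.03.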
